A study of Mus musculus with 2 samples.

Results

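Keratins are the intermediate filament proteins of epithelial cells, and the set described here is every gene on the arrays with a single-gene probe set and a symbol of Krt followed only by digits. The rule found 44 keratin genes, measured by 55 probe sets, among 18193 genes and 45101 probe sets in all. Of the 44, 32 fell into 6 epithelial compartments and 12 belong to none of them. The family was picked with the signals of these same arrays in view, so its differences are described without a test.

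The samples were labelled as cerebral cortex RNA at E17.5, from 1 Sox11(+/+) embryo, called wild type, and from a Sox11(-/-) littermate, called null, each hybridised to 1 Affymetrix array. Both embryos had a Sox11(+/-) mother and a Sox11(+/-) father on a mixed C57BL/6 and 129 background, and tail clips gave the genotypes. The sources used here do not describe how the Sox11 allele was inactivated. There is no second embryo of either genotype, so no value below has a replicate error, and every difference is between 2 RNA samples and not shown to belong to the genotypes.

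A keratin filament is built from pairs of an acidic type I and a basic type II protein, so the genes are used in matched sets. Basal cells of stratified epithelia make Krt5 with Krt14, and their daughters switch to Krt1 with Krt10 as they leave the basal layer. Krt8 with Krt18 serves simple, single-layered epithelia, Krt4 with Krt13 the lining of mouth and oesophagus, and separate sets build the inner root sheath and the shaft of the hair. Neurons of the cortex are not known as a source of these proteins.

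The regulatory sequences of 7 genes on chromosome 11 are shown first, since several neighbours there were low together. Of the 7, Krt32 was within 1.5-fold (log2 difference, null minus wild type, -0.29). Krt26, which lies between Krt25 and Krt27 and is not shown, was too dim on both arrays to give a difference (44.2 in wild type, 32.7 in the null). Each is the 250 bases before the annotated start, from RefSeq (GRCm38.p6), read in the direction of the gene. Capitals mark TATAAA, the core of the TATA box, on the gene's strand. In the hair sheath genes Krt25, Krt27 and Krt28 they also mark CCANTTA.
Krt25, chr11:99322952-99323201, minus strand: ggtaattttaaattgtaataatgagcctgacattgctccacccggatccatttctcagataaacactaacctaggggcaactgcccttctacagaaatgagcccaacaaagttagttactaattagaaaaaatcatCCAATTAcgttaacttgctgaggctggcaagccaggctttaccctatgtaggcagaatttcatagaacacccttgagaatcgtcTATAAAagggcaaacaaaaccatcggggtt
Krt27, chr11:99351119-99351368, minus strand: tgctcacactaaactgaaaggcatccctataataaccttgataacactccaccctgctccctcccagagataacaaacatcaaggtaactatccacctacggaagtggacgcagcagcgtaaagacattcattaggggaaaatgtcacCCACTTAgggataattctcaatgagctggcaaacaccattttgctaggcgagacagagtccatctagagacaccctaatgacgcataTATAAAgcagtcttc
Krt28, chr11:99374904-99375153, minus strand: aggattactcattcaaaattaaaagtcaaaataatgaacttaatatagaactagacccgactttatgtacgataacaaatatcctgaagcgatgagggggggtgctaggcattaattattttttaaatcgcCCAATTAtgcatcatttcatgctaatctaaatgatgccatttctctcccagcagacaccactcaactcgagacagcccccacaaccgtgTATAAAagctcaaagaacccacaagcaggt
In the hair shaft genes Krt34, Krt31 and Krt32 they mark TATAAA and TTTTATG.
Krt34, chr11:100041555-100041804, minus strand: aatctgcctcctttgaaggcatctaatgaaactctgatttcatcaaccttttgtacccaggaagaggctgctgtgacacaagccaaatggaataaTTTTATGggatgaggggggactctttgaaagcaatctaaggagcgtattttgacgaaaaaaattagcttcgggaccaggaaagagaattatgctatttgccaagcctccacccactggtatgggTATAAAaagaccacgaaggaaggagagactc
Krt31, chr11:100050552-100050801, minus strand: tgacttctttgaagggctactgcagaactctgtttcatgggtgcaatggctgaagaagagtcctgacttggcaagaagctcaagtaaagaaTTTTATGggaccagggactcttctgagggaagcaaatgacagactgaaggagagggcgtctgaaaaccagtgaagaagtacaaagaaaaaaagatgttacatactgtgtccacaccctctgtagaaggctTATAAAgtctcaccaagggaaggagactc
Krt32, chr11:100088270-100088519, minus strand: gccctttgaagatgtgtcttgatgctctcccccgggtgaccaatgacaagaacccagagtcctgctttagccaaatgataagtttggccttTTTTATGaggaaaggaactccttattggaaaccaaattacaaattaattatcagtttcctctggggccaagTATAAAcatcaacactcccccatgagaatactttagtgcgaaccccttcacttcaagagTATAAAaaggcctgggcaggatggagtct
In Krt10, the suprabasal gene beside Krt28, they mark TATAAA alone.
Krt10, chr11:99389365-99389614, minus strand: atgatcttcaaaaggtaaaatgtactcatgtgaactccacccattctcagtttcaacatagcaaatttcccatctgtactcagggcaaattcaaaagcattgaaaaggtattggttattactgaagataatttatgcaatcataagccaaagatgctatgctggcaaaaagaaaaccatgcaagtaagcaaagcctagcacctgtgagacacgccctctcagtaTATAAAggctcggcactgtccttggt

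Of the 44 keratin genes, 31 had such a window, and Krt13 had 2, which gave 32 keratin windows. TATAAA stood on the gene's strand in 13 of the 32 (40.6%), against 7.59% of 32851 windows of the same length over all genes, and on either strand in 46.9% against 12.4%. CCANTTA and TTTTATG were chosen after the keratin sequences had been read, so their counts are descriptions only. CCANTTA stood on the gene's strand in all 5 windows of the adjacent genes Krt24 to Krt28, between 102 and 119 bases before the start, and in 4.33% of all windows (8.43% on either strand). TTTTATG stood on the gene's strand in 5 of 6 hair shaft windows, those of Krt31, Krt32, Krt34, Krt82 and Krt84, and in 1.7% of all windows (3.77% on either strand). Read on the other strand TTTTATG is CATAAAA, which can itself stand at a TATA box, as it did between 30 and 34 bases before the start in Krt13, Krt23, Krt75 and Krt84. AGATAA, the core of GATA factor sites, stood in 4 of 7 hair sheath windows (Krt25, Krt27, Krt71 and Krt73), in 2 of 3 suprabasal windows (Krt2 and Krt10), in those of Krt8, Krt20 and Krt76, and in 9.99% of all windows, both strands counted. TGANTCA, which reads the same on both strands and is bound by AP-1, was found in 2 of the 32 keratin windows, both of Krt13, and in 6.75% of all. Of the keratins at least 1.5-fold lower in the null RNA, 12 had a window, and 9 of these 12 held TATAAA on the gene's strand (Krt10, Krt25, Krt27, Krt28, Krt31, Krt34, Krt71, Krt73 and Krt76). It stood in 4 of the other 20 windows (Krt12, Krt20, Krt26 and Krt32). None of the 2 basal, 2 mucosal (both of Krt13) and 3 simple windows held it. With so few windows that is near the share of all windows (7.59%). Neighbouring genes share sequence, and these counts were taken after the values were seen, so they are a description. CCANTTA and TTTTATG each stood in 3 of the 12 and in 2 of the 20. A match is not evidence of binding.

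The arrays were set against their labels. All 6 Sox11 probe sets were lower on the null array, by log2 differences from -2.59 to -1.05, and the brightest read 6582 (wild type) and 3149 (null). Every one of the 6 stayed above the median of the null array (177), the dimmest at 306, so Sox11 signal was present in the RNA labelled null. Without the structure of the allele, which probe sets lie in a deleted part is not known. Cortical neuron markers were present (5 of 5 genes with a probe set above the median of both arrays), as were those of radial glia (6 of 6). So were 7 of 8 skin epithelium markers other than keratins, all 6 of skeletal muscle and all 4 of lens, while none of 4 liver and none of 4 gut and kidney markers was. Salivary gland had 3 of 4. Markers of skin, muscle, lens and salivary gland, tissues that the cortex label does not name, thus gave signal in both samples. Of the 7 skin epithelium markers that pass the filter, 4 were at least 1.5-fold lower, against 2.49% of all genes that pass. Trp63 (log2 difference -0.085), Perp (-0.51) and Sfn (0.064) were not. The summed signal of all 8 was 22481 in wild type and 13421 in the null, of which Lor gave 10784 and 6581. All 4 lens markers were at least 1.5-fold lower too (summed signal 19614 and 11727), as was 1 of 3 passing salivary gland markers (56224 and 33164 over all 4). The skeletal muscle sum was 108963 and 108562. Xist, the RNA of the inactive X chromosome, was at 17505 and 155, and the 3' to 5' signal ratio of beta-actin, a sign of RNA integrity, was 1.78 and 1.16, and that of Gapdh 0.922 and 0.816. The part of tissue, sex or RNA integrity in the keratin differences was not tested. Fewer cells of a type and less RNA per cell cannot be told apart in such RNA.

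The suprabasal pair Krt1 and Krt10 and most keratins of hair sheath and hair shaft (5 of 7 and 7 of 10) were at least 1.5-fold lower in the Sox11-null RNA, while all 3 basal and all 4 simple keratins were within 1.5-fold. Among genes that pass a filter on low signals, set out below, it was 4 of 4 sheath and 3 of 5 shaft genes. A gene was represented by its brightest probe set. Signals under the 25th percentile of an array (52.9 in wild type, 52.5 in the null) were raised to that floor, and a fold against the floor is a bound. Of the 44 genes, 16 were at least 1.5-fold lower in the null and 0 were higher by that much. Over all 18193 genes 4.46% were that much lower and 3.9% that much higher. At least 2-fold lower were 12 keratins, and 0 were 2-fold higher, against 1.19% and 0.863% of all genes. The median log2 difference over the 44 was -0.35, with 34 below 0, 7 above and 3 at the floor on both arrays. Since the choice of the family used this contrast, the counts are not support for a difference.

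**Figure D1:**
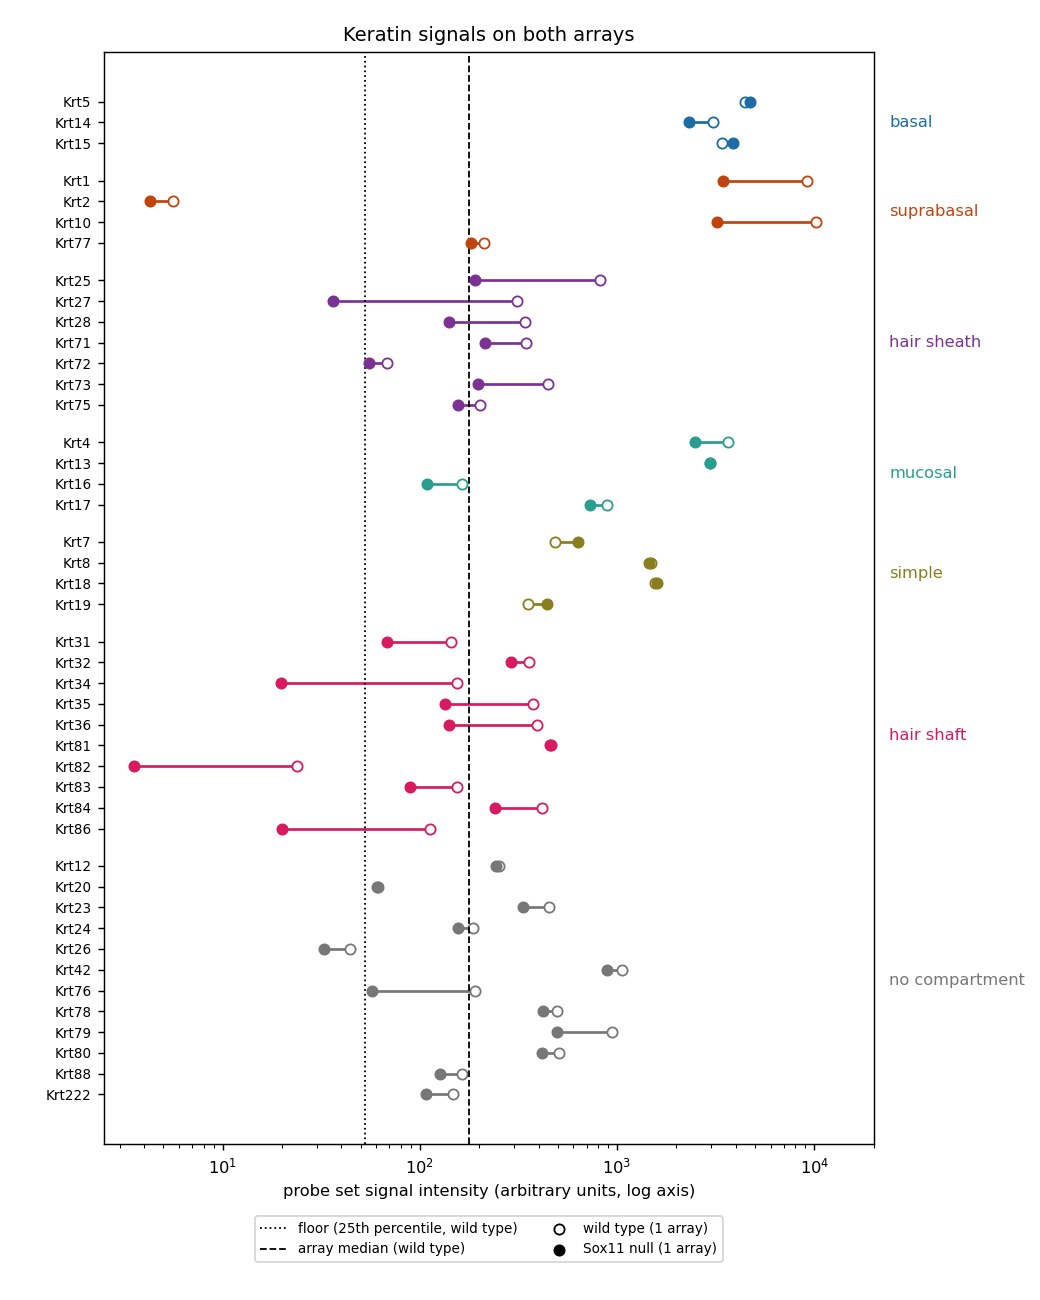
Probe set signal of each keratin gene (log axis, arbitrary units) in wild type (open circle) and Sox11 null (filled circle), 1 array each, grouped by compartment, with the floor and the array median of wild type as vertical lines. The null circles of Krt1, Krt10, Krt25 and Krt27 lie far to the left of their wild-type circles, and those of Krt13, Krt8, Krt18 and Krt81 lie on them.

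A filter on low signals kept 28 keratins whose mean log2 signal over both arrays reached the mean of the array medians (178 and 177). Of these 10 were at least 1.5-fold lower (2.49% of the 11974 genes that pass) and 0 higher (2.46%), and 7 were at least 2-fold lower (0.66%) and 0 higher (0.284%). Their median difference was -0.28. Dim genes scatter more, so the count was also split by mean signal. Among keratins with a mean signal above 1000, 2 of 9 were at least 1.5-fold lower, against 1.31% of all genes in that range. From the median to 1000 it was 8 of 20, against 3.24%, and from the floor to the median 5 of 11, against 14.1%. Below the floor by mean signal lay 4 genes, 1 of which, Krt86, was that much lower. As a technical yardstick, probe sets of 1 gene differed among themselves with a pooled SD of 0.34 on the log2 scale (4839 genes).

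The basal keratins, made by the dividing layer that rests on the basement membrane, were all within 1.5-fold. Krt5, the type II protein of that layer, had a signal of 4461 on the wild-type array and 4737 on the null array, a log2 difference of 0.11; later pairs of signals are given in the same order. Krt15, a type I keratin of basal cells and hair follicle stem cells, was at 3421 and 3861 (0.19). Both were slightly brighter in the null. Krt14, the type I partner of Krt5, was at 3062 and 2303 with its brightest probe set (-0.39), at 1914 and 1758 with another (-0.10) and at 211 and 181 with the last (-0.21). Krt14 was thus below 0 with each of its 3 probe sets. All 3 basal genes were within 1.5-fold, and their median was 0.11. Most genes that pass the filter were within 1.5-fold too (2.49% were at least that much lower and 2.46% higher).

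The suprabasal pair was far lower. Krt1, the type II keratin of the spinous layer above the basal cells, had signals of 9172 and 3465, which is 2.61-fold lower. Krt10, its type I partner, was at 10189 and 3229, which is 3.12-fold lower. Their log2 differences, -1.39 and -1.64, lay 0.25 apart. The genes are on different chromosomes. Both stayed beyond 1.5-fold under all 10 processing alternatives (-1.42 to -1.31 and -1.67 to -1.57). The other suprabasal genes did not follow. Krt77, an embryonic relative of Krt1, was at 212 and 182 (-0.20). Krt2, of the upper layers of mature skin, was under the floor on both arrays (5.58 and 4.26), which gives no difference.

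**Figure D2:**
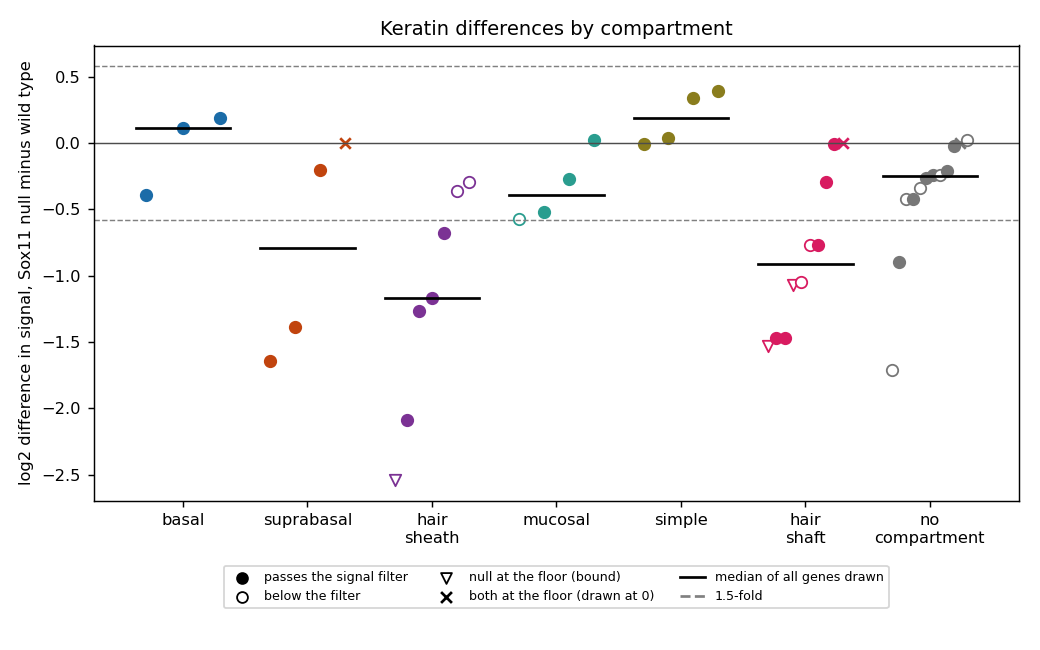
Log2 difference in signal (Sox11 null minus wild type) of each keratin gene by compartment, with filled circles for genes that pass the signal filter, open circles for dimmer genes, triangles for bounds, crosses for genes at the floor on both arrays, and black bars for the median of all genes drawn. Medians run from -1.17 in the hair sheath to 0.19 in simple keratins, and no point reaches the upper 1.5-fold line.

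The hair sheath set holds keratins of the inner root sheath, which moulds the growing hair, and Krt75 of the companion layer around it. All 7 genes of the set with a probe set were below 0. Of these, 5 were at least 1.5-fold lower, against 4.46% of all genes, and the median was -1.17. Among genes that pass the filter the sheath median was -1.22 and the suprabasal median -1.39, while over all genes the suprabasal median was -0.79, with Krt2 counted as 0. Among the type I genes, Krt25 was at 820 and 190, which is 4.25-fold lower (log2 difference -2.09). Krt27 was at 310 and 36.2, at least 5.83-fold lower with the null signal under the floor. Krt28 was at 341 and 140, 2.41-fold lower. These genes lie next to each other on chromosome 11, with Krt26 between Krt25 and Krt27. The size for Krt27 depends on the floor, from -3.08 with none to -0.79 when the array median served as the floor, and it was lower by over 1.5-fold in each setting.

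The type II partners of the sheath were less far apart between the arrays. Krt73 was at 447 and 197 (2.25-fold lower) and Krt71 at 346 and 214 (1.6-fold lower). Krt72 was at 68.1 and 55, just above the floor, with a difference of -0.29. Krt75, the keratin of the companion layer around the sheath, was at 201 and 156 (-0.36). Beyond 1.5-fold were 2 of the 4 type II genes and all 3 type I genes, where 4.46% of all genes were that much lower. Krt72 lay too near the floor in wild type to be called 1.5-fold lower. Among sheath genes that pass the filter (Krt25, Krt28, Krt71 and Krt73), all 4 were beyond 1.5-fold, against 2.49% of passing genes. Krt74 was not analysed here.

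The hair shaft keratins, of the hard fibre itself, were also low in the null, but most were dim. Of 10 genes 7 were at least 1.5-fold lower and 9 were below 0, with a median of -0.91. Over all genes 4.46% were that much lower, and 14.1% of those with a mean signal from the floor to the median. Only 5 of the 10 pass the filter, and 3 of these were at least 1.5-fold lower (2.49% of all passing genes), with a median of -0.77. Among the 5, Krt35 was at 376 and 134 and Krt36 at 393 and 140, each 2.77-fold lower. Krt84 was at 416 and 240 (1.71-fold lower), and Krt32 at 358 and 289 (-0.29). Krt81 was at 463 and 456 (-0.0036). The shaft genes that pass the filter thus differed among themselves, from Krt81 near 0 to Krt35 and Krt36.

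The other shaft genes were near or under the floor in the null. Krt31 was at 143 and 68.2 (2.07-fold lower), and Krt83 at 155 and 89.6 (1.71-fold). Krt34 was at 154 and 19.8, at least 2.89-fold lower, and Krt86 at 112 and 19.9, at least 2.11-fold lower. Krt82 was under the floor on both arrays (23.8 and 3.56). With the array median as the floor, the differences of Krt31, Krt34, Krt83 and Krt86 were all 0, since both signals then lie at the floor. Krt85 was not analysed here, and Krt33a and Krt33b fall outside the rule by the letter in their symbols, with 75.7 and 13.9 for Krt33a and both signals of Krt33b under the floor (12.1 and 23.1).

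All 4 mucosal and stress-associated keratins of the rule were within 1.5-fold by their brightest probe sets. So were most genes, of which 4.46% were at least 1.5-fold lower and 3.9% higher. Krt4, the type II keratin of the oral and oesophageal lining, was at 3635 and 2496 (-0.52) with one probe set and at 2950 and 1993 (-0.55) with the other. Its type I partner Krt13 was at 2949 and 2955 (0.022) with the brightest of 3, at 268 and 256 (-0.049) with another and at 587 and 315 (-0.88) with the last. Partners of this pair therefore lay further apart (0.55) than Krt1 and Krt10, and the Krt13 probe sets spanned 0.90. Krt17, of hair follicle and wounded skin, was at 890 and 726 (-0.27), and Krt16, another wound-induced type I keratin, at 163 and 109, at the edge of 1.5-fold (-0.57, and 0 if the array median is the floor). Krt6a and Krt6b, whose letters place them outside the rule, were at 2125 and 2062 (-0.025) and at 226 and 114 (-0.97, beyond 1.5-fold, and -0.33 if the array median is the floor).

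The simple keratins had the highest compartment median, 0.19. Krt8, the type II keratin of single-layered epithelia, was at 1479 and 1455 (-0.0052) with its brightest probe set, although its 3 probe sets ran from -0.48 to 0.29. Krt18, its partner, was at 1566 and 1589 (0.04). The pair had nearly the same signal in both RNA samples. Krt7, of glandular ducts, was at 487 and 631 (0.39), and Krt19, the smallest type I keratin, at 354 and 441 (0.34). These were the highest values of the family, both within 1.5-fold.

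Of the 12 keratins outside the compartments 2 were at least 1.5-fold lower, against 4.46% of all genes. Krt76, of the hard palate and oral lining, was at 190 and 57.3 (3.27-fold lower), close to the floor in the null. Its difference was -0.081 when the array median was the floor. Its only probe set is of the _x_at type, so the gene had no value without the _s_at and _x_at probe sets. Krt79, of the sebaceous duct and upper hair follicle, was at 942 and 497 (1.87-fold lower, and beyond 1.5-fold under every alternative). Krt42 was at 1065 and 887 (-0.24) with its brighter probe set and at 127 and 63.6 (-0.98) with the other. Krt80 was at 505 and 417 (-0.26). Krt12, the keratin of the cornea, was at 251 and 244 (-0.02). Krt20, Krt23, Krt24, Krt78, Krt88 and Krt222 lay between -0.42 and 0.023, and Krt26 was under the floor on both arrays.

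**Figure D3:**
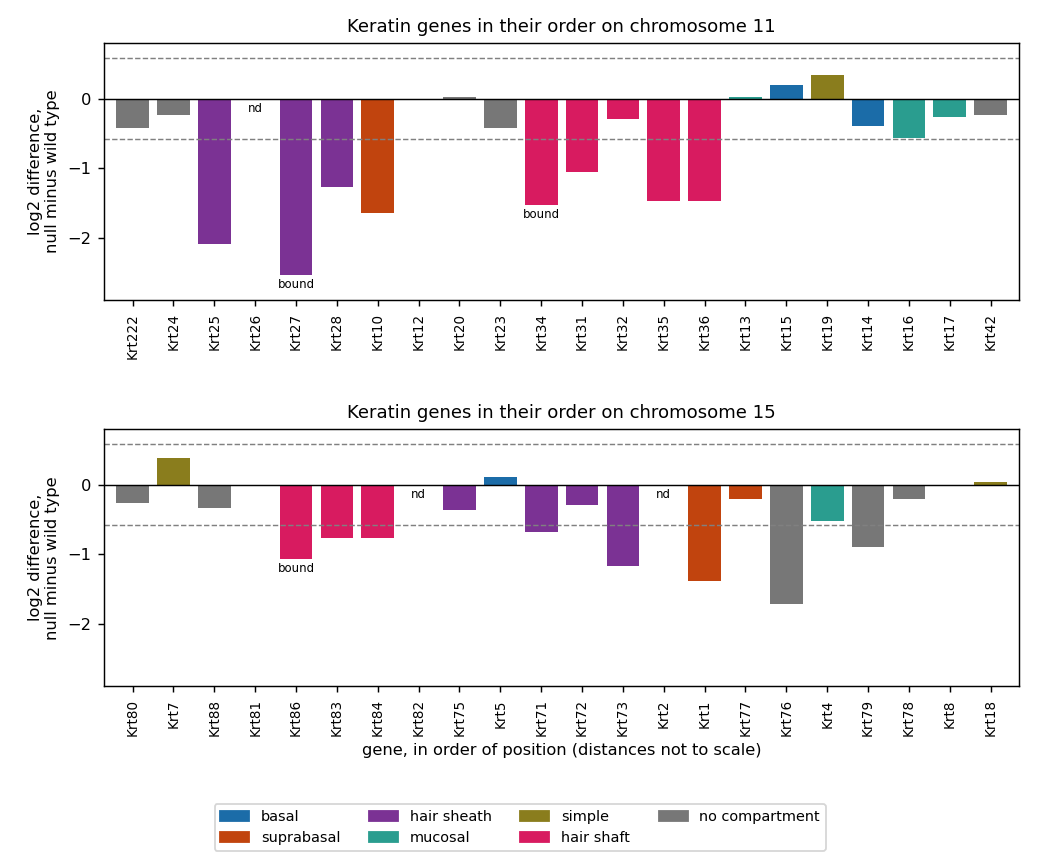
Log2 difference in signal (Sox11 null minus wild type) of the 22 keratin genes on chromosome 11 (top) and the 22 on chromosome 15 (bottom), in the order of the genes and not to scale, coloured by compartment. The word bound marks a null signal at the floor, nd a gene at the floor on both arrays, and dashed lines 1.5-fold. Runs of low bars on chromosome 11 (Krt25 to Krt10, Krt34 to Krt36) end at Krt12 and Krt13, which lie near 0. The runs are broken by Krt26 (nd) and Krt32 (-0.29).

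By chromosome, the type I genes lie together on chromosome 11 and the type II genes on chromosome 15, with Krt18 beside Krt8. Each chromosome held 22 of the keratins and 8 that were at least 1.5-fold lower. At 2-fold it was 8 on chromosome 11 and 4 on chromosome 15, and the medians were -0.41 and -0.32. The low genes were not spread evenly. On chromosome 11 they stood in a run of sheath genes ending with Krt10, with Krt26 inside it at the floor on both arrays. A second run was of shaft genes, Krt34, Krt31, Krt35 and Krt36, with Krt32 inside it at -0.29. Basal, mucosal and simple genes farther along, from Krt13 to Krt17, lay between -0.57 and 0.34. On chromosome 15 Krt5 (0.11) stood beside the sheath gene Krt71 (-0.68). Compartment and position cannot be told apart where the genes of 1 compartment are neighbours.

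Lists of known partners of keratins were read beside all passing genes, of which 2.49% were at least 1.5-fold lower and 2.46% higher. Desmosomes, the junctions to which keratin filaments attach, had 7 of 12 passing genes at least 1.5-fold lower and 0 higher, with a median of -0.72. The count was 4 of 9 when probe sets were averaged and 4 of 7 with the filter at the 75th percentile. Dsc1, a cadherin of the upper layers, was at 1130 and 253 (4.41-fold lower, but -1.34 on the log2 scale as the mean of its probe sets), Dsg1a, its suprabasal counterpart, at 419 and 189 (2.19-fold) and the plaque protein gene Jup at 894 and 444 (1.99-fold). Hemidesmosomes anchor the filaments of basal cells to the matrix. The list of their genes and of linkers had 0 of 7 beyond 1.5-fold, near the share of all passing genes, and a median of -0.16. Dst was at 3402 and 2997 and Itga6 at 1839 and 1898. Evpl (-0.54) and Ppl (-0.40) were in the list as linkers and not as parts of hemidesmosomes. The lowest of the list, Col17a1, was at the edge (-0.58, beyond 1.5-fold in 5 of the alternatives). Among the other desmosome genes, Dsp was at 6002 and 3338 (-0.83, and -0.40 as the mean of its probe sets). The 5 passing genes within 1.5-fold were Cdsn (-0.58), Perp (-0.51), Dsg2 (-0.39), Pkp2 (-0.06) and Dsc2 (576 and 651, 0.19). The difference between the lists was not tested.

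The cornified envelope, the protein shell of dead surface cells, had 6 of 9 passing genes at least 1.5-fold lower and 0 higher (median -0.95). The shares over all passing genes were 2.49% and 2.46%. Hrnr was at 956 and 236 (4-fold lower), Flg, whose product bundles keratin filaments, at 3224 and 836 (3.81-fold) and Sprr3 at 705 and 197 (3.54-fold). Of 5 passing hair follicle genes 2 were at least 1.5-fold lower and 0 higher, with a median of -0.26. Tchh, whose product cross-links sheath keratins, was at 895 and 223 (3.96-fold lower) and the signal gene Shh at 837 and 474 (1.74-fold, but -0.46 on the log2 scale as the mean of its probe sets). The others were Msx2 (-0.26, and -0.64 as the mean of its probe sets), Lef1 (-0.047, and 0.58 by that mean) and Foxq1 (0.19). With probe sets averaged, 2 hair follicle genes passed the filter and 1 of them was beyond 1.5-fold. Keratin-associated proteins, the matrix of the hair shaft, were mostly under the filter. Of 38 genes 5 pass, of which Krtap8-1 was at 317 and 206 (1.52-fold lower), and over all 38 there were 11 at least 1.5-fold lower and 0 higher, with 22 at the floor in the null. Among all genes between floor and median, 14.1% were that much lower.

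Few regulators of epithelia or genes of simple epithelium were beyond 1.5-fold. The same holds for passing genes in general (2.49% lower and 2.46% higher). Trp63, which sets up stratified epithelia, was at 802 and 746 (-0.085). Of 9 passing regulators only Grhl1 was beyond 1.5-fold (441 and 275, 1.58-fold lower), and the median was -0.26, with 2 of 6 beyond 1.5-fold when probe sets were averaged. In simple epithelium 0 of 10 were beyond 1.5-fold, with Cdh1 at 3220 and 2643 and Epcam at 1415 and 1307, and the median was -0.10. Without the _s_at and _x_at probe sets 1 of 10 was higher by that much. Other intermediate filament genes centred on -0.011, and 12 of 14 were within 1.5-fold. The 2 exceptions were Bfsp2 (273 and 139) and Bfsp1 (251 and 160), which build the beaded filament of the lens, while Vim of mesenchyme and radial glia was at 12303 and 14440.

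**Figure D4:**
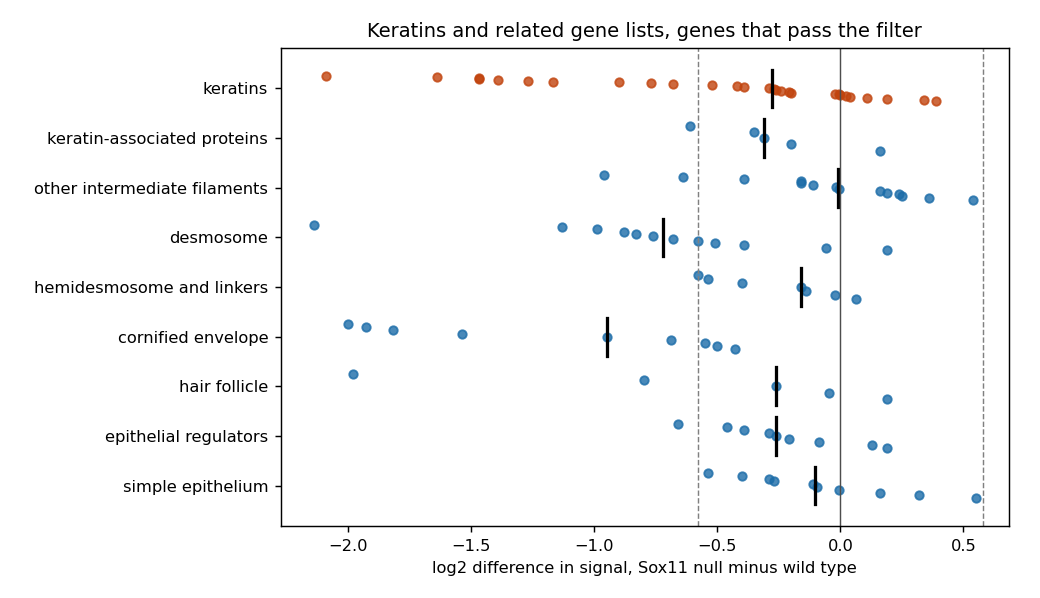
Log2 difference in signal (Sox11 null minus wild type) of genes that pass the signal filter, 1 point per gene, for the keratins (orange) and 8 lists of related genes (blue), with black bars for medians and dashed lines at 1.5-fold. Medians of the cornified envelope (-0.95) and the desmosome (-0.72) lie left of the keratin median of -0.28, and other intermediate filaments centre on -0.011.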

How the data were processed

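Total RNA of 2 samples, 1 per genotype, was hybridised as biotinylated cRNA. The deposited table holds 1 linear signal intensity per probe set and array, made by the authors with Affymetrix Expression Console per the submitters' processing notes. The sources used here do not state the algorithm. Both arrays have a mean of 500 after trimming 2% at each end. Of 45101 probe sets, 64 controls were left out, and 34945 name 1 gene in the platform annotation. Symbols were updated through RefSeq (GRCm38.p6). Signals were taken to log2, the null array was shifted by 0.018 so that the median difference of genes passing the filter was 0, and the floor was applied last. A gene at the floor on both arrays counts as 0. No test was run, since each genotype has a single array, and that number limits the precision. The keratins and all lists were chosen with earlier results of these data known. Named genes were every keratin of the 6 compartments, other keratins beyond 1.5-fold or among the 3 brightest, and from each list the 3 largest differences each way beyond 1.5-fold, or the 2 brightest genes. Krt12, Col17a1, Dsp, Dsc2, Msx2, Lef1, Foxq1, Trp63, Vim, Xist, Krt6a, Krt6b, Krt33a and Krt33b were added after their values were seen. So were Cdsn, Dsg2, Evpl, Lor, Perp, Pkp2, Ppl and Sfn. The calculation (Python 3.11.15, pandas 2.3.3, statsmodels 0.14.6) was tested on simulated data, and 10 alternatives were run.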

Additional observations from a re-analysis of the deposited data

How the results depend on the processing

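With 1 embryo per genotype and no count behind an intensity, neither a variance nor a detection limit can be had from these data, and signals near the floor carry the least information. No paired analysis was possible because each genotype has 1 sample and the labels carry no replicate numbers. Signals were also left uncentred, quantile normalized, or freed of a loess trend. The floor was removed or raised to the median, 3 other filters were set, probe sets of a gene were averaged, and the _s_at and _x_at types were dropped. With no filter 16 of 44 keratins were at least 1.5-fold lower, 12 were at least 2-fold lower and the suprabasal median was -0.79, since Krt2 then counts as 0. With the filter at the 75th percentile 12 keratins remained, of which 3 were 1.5-fold and 2 were 2-fold lower, and no sheath or shaft gene was left to give a median. Under the other alternatives the count at 1.5-fold was 10 to 12, and no keratin was 1.5-fold higher in any setting. Of the 44 genes, 11 were 1.5-fold lower and 25 within 1.5-fold under every setting that gave them a value. The 25 include Krt2 and Krt26, which were under the floor on both arrays and count as 0 wherever a floor was used. They also include Krt20 and Krt72, too near the floor in wild type (60.8 and 68.1) to be called 1.5-fold lower against it. The floor mattered most among the gene values, with 12 genes moved by more than 0.34 (log2) when it was raised to the median and 6 when it was removed.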
